A study of Homo sapiens with 39 samples.

Results

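Clustered histone genes are the genes for linker histone H1 and core histones H2A, H2B, H3 and H4 that lie side by side in a few genomic clusters. They were taken as the genes of the array's probe-to-gene table whose single symbol follows the nomenclature of these clusters, without pseudogenes, and each was read from its probe set with the highest mean over all arrays. This gave 61 of 18132 genes: 6 H1, 15 H2A, 18 H2B, 10 H3 and 12 H4 genes, 54 of them on chromosome 6, 6 on chromosome 1 and 1 on chromosome 12. The members were measured by 104 probe sets, and 29 genes had more than 1. A further 9 histone probe sets paired with several symbols were left out, and 1 gene was dropped as a pseudogene.

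The arrays measured U937, an established human line from a histiocytic lymphoma with features of immature monocytes. Cells were cultured with Pu27, Pu9- or Pu5-, each at 10 µM, and collected at 24, 48 and 72 h, beside untreated cells collected at 24, 48 and 72 h and at 0 h. Each of the 13 groups had 3 arrays, 39 in all, and the oligonucleotide groups of 1 time share the same 3 untreated arrays. By the sequences in the labels, all 3 oligonucleotides are rich in guanine, Pu9- being shorter than Pu27 and Pu5- longer. The labels speak of 3 repeat experiments without saying more about them, so each p-value reflects how far these samples vary, which may be technical. Signals come from bulk RNA, in which fewer cells of a kind and less RNA per cell cannot be told apart.

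Histones are the proteins around which nuclear DNA is wound, with H2A, H2B, H3 and H4 in the nucleosome core and H1 on the linker DNA between cores. The clustered genes are mostly transcribed while DNA is replicated, and most of their mRNAs end in a conserved stem-loop, bound by SLBP, in place of a poly(A) tail. Some of them, among them H2BC12, H2BC21, H2BC5, H2BC4, H2AC6 and H1-2, are known to make polyadenylated mRNA as well, for example in cells that leave the cycle. The labelling kit used here primes on poly(A) tails, so the signal of a histone gene on these arrays can depend on the tail of its mRNA as well as on its amount.

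The promoters of this family show how its classes differ. RefSeq sequences of build GRCh38.p14, 300 bases from 250 before to 50 after each gene's start, were matched for 56 of the 61 members and named by symbol. The octamer ATTTGCAT (or its reverse complement ATGCAAAT), known to be bound by the POU factor POU2F1, was in 11 of 14 H2A windows and 14 of 18 H2B windows. It was in 1 of 8 H3 windows, 0 of 10 H4 windows and 0 of 6 H1 windows, and in 1.8% of the 27305 promoters of all genes. The CCAAT box (CCAAT or ATTGG) was in all 6 H1, 14 H2A, 18 H2B and 8 H3 windows but in 3 of 10 H4 windows, against 35.7% of all promoters. The AC box of H1 genes (AAACACA or TGTGTTT) was in 6 of 6 H1 windows and in 1 window of any other class, against 5.76% of all promoters, and the TATA box (TATAAA or TTTATA) was in 36 of 56 member windows, against 12% of all promoters. In the windows printed here motifs share letters only in H2BC12, where a TATA box overlaps one on the other strand, and a match is a run of letters, not a measured binding site. Windows of divergent neighbours can overlap, as 265 of 300 bases do for H2BC21 and H2AC20. A match there counts for both genes and both classes, and may belong to the neighbour.

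Windows of the 4 genes on which the results turn are printed 5′ to 3′ along the gene's own strand, with the motifs named above in capitals. H2BC21 lies on the minus strand at chr1:149886633-149886932, H2BC12 on the minus strand at chr6:27146809-27147108, H1-2 on the minus strand at chr6:26056421-26056720 and H4C12 on the minus strand at chr6:27831511-27831810. H2BC21 holds 1 octamer, 3 CCAAT boxes and 2 TATA boxes, and H2BC12 holds 1 octamer, 6 CCAAT boxes and 3 TATA boxes. H1-2 holds 2 AC boxes and 1 CCAAT box, and H4C12 holds 1 TATA box and none of the others.
H2BC21: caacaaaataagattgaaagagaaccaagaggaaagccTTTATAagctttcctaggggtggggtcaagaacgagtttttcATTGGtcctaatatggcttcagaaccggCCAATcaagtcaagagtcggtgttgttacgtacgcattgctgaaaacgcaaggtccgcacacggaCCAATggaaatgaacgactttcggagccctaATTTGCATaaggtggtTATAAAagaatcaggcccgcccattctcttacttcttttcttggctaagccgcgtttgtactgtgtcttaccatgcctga
H2BC12: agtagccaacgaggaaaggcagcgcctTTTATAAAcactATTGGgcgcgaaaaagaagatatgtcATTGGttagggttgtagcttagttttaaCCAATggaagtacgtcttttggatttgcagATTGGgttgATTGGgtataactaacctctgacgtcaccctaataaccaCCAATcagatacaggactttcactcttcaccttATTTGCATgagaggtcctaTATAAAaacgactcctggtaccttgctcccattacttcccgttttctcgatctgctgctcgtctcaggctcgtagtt
H1-2: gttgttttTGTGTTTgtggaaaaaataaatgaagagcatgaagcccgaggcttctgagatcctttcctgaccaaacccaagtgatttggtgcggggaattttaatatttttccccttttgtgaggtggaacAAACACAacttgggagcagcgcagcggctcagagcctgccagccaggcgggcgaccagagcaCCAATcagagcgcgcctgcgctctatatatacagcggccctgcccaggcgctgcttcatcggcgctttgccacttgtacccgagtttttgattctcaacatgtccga
H4C12: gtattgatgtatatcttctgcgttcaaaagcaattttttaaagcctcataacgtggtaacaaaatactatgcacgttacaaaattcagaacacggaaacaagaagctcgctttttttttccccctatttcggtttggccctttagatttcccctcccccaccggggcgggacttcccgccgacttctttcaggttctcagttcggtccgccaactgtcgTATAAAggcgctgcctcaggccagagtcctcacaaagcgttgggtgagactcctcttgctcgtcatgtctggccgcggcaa

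Values are given in log2 units of the deposited signal, and differences are differences of those units. Array medians over all genes lay between 5.82 and 5.94. Of the 10 listed myeloid markers, 9 were measured, with a median of 7.73 and the serine protease CTSG highest at 13.9, whereas MPO, another granule enzyme, stood at 4.85. T cell markers lay between 3.84 and 5.20 and fibroblast markers between 3.57 and 4.98. The 4 measured B cell markers lay between 3.86 (MS4A1) and 9.13 (PAX5), with a median of 5.91, and 3 of them reached 5. Epithelial markers lay between 3.21 and 5.45 and the 2 measured erythroid markers between 5.68 and 7.33. Probe sets at the 3′ end of ACTB exceeded those at its 5′ end by 1.80 to 2.32 over the arrays, with the highest group mean, 2.24, in Pu27-treated cells at 72 h, where untreated cells had 2.05. The part of RNA quality in the results was not tested beyond a fit with this difference as a covariate.

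One array stood apart in this family. The root mean square deviation of the 61 members from their group means was 0.379 on the array of untreated cells at 0 h replicate 1, against 0.245 and 0.22 on the other arrays of that group and 0.111 to 0.195 on the remaining arrays. On it the difference from the mean of the other 0 h arrays was -3.27 for H2AC20, -1.60 for H1-3, -1.55 for H1-4 and -0.73 for H1-5. Calls against 0 h that were lost without that array are named with their values.

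Most clustered histone genes gave dim signals. The median level of the 61 genes over all arrays was 4.43, against 6.46 for all genes, and 41 of the 61 (67.2%) lay under 5, against 30.5% of all genes. Only H1-2, H2AC20 and H4C3 reached 8. Probe sets differ in affinity, so these levels describe each probe set and do not rank the genes by mRNA amount. By class, the linker histone H1-2 read 9.10, the H2A gene H2AC20 8.58, the H2B gene H2BC12 7.88, the H3 gene H3C8 5.92 and the H4 gene H4C3 13.89, and these were the brightest of their classes. The class medians were 5.90 for H1, 4.18 for H2A, 4.33 for H2B, 4.18 for H3 and 4.45 for H4. The median SD within groups was 0.165 over members, and a member's group means spanned 0.414 in the median.

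**Figure D1:**
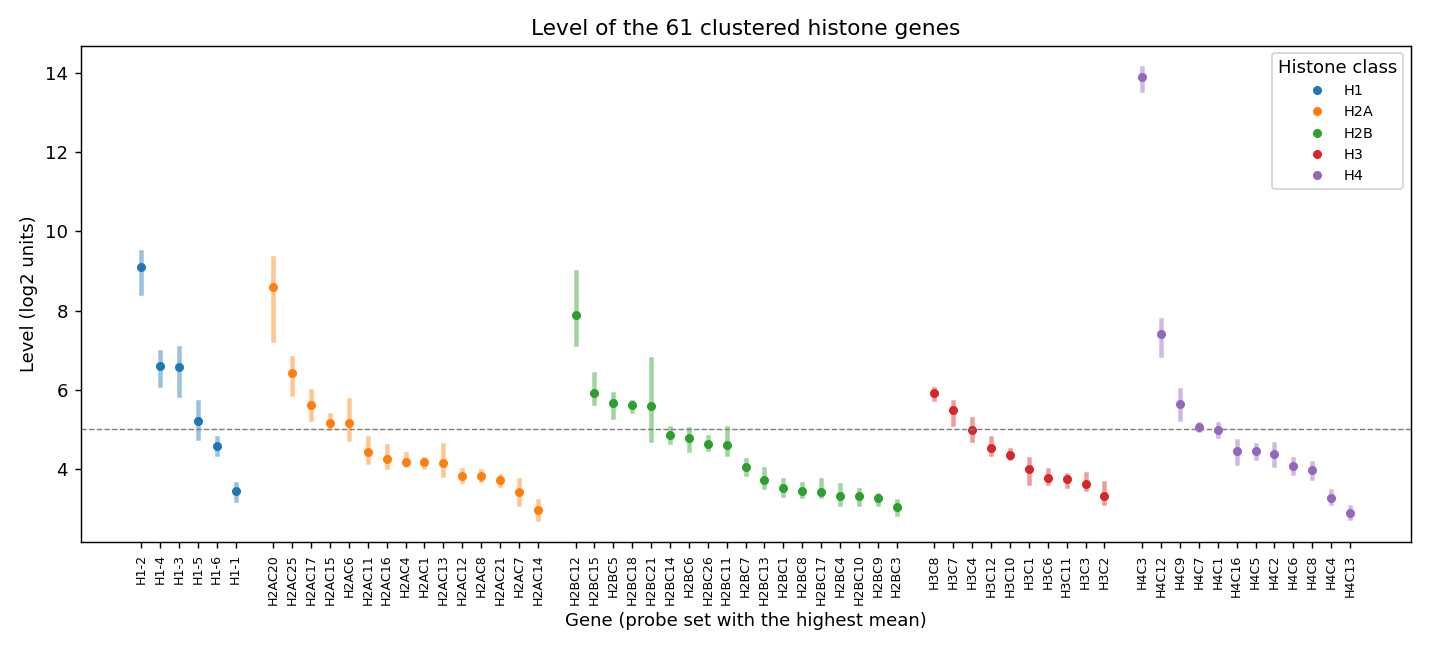
Level of each of the 61 genes in log2 units (vertical axis), by histone class and from the brightest to the dimmest probe set within a class; points are means over 39 arrays, bars run from the lowest to the highest of the 13 group means, and the dashed line marks 5. H4C3 stands alone at 13.89, and 41 of 61 genes lie under the line.

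Many of these genes are near-identical copies. Of the 61 chosen probe sets, 15 carry the array maker's s mark (shared by related transcripts) and 10 the x mark (probes that may bind other transcripts), 34 carry none and 2 the a mark. H1-2 and H4C3 have x-marked probe sets and H3C8 an s-marked one, so their values may include signal of paralogs. H3C8 read 5.92 on average and did not pass a test in any comparison reported here. Its untreated arrays gave 5.74, 5.63 and 5.92 at 0 h, 5.61, 5.98 and 5.99 at 24 h, 6.31, 6.07 and 5.58 at 48 h and 5.90, 6.01 and 5.76 at 72 h, and those ranges overlapped.

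Few clustered histone genes were called with an oligonucleotide, and few were called among all genes. With Pu27, over the mean of the 3 times, 1 of 61 members (1.64%) passed the test, the core histone gene H4C12, which fell. The test called 3.98% of all genes, and 1.19% as lower. With Pu9- and with Pu5- no member passed over the mean of the times, where 0.0882% and 0.254% of all genes did. Their counts at an unadjusted p under 0.05 in limma were 7 members for Pu27, 3 for Pu9- and 3 for Pu5-. The median difference of the members with Pu27 was -0.04, against 0.01 over all genes.

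At single times, 1 call was made on the brightest probe sets. H1-2 fell with Pu5- at 72 h, where 0.778% of all genes were called, and 0.403% as lower. No member passed with Pu27 at 24, 48 or 72 h, where limma called 0.0662%, 0.193% and 5.08% of all genes, and 5, 9 and 5 members had an unadjusted p under 0.05. None passed with Pu9- at 24, 48 or 72 h, where 0.0165%, 0.0165% and 0.96% of all genes were called, with 2, 3 and 3 members at an unadjusted p under 0.05. None passed with Pu5- at 24 or 48 h, where 0.0165% of all genes were called at either time, with 4 and 0 members at an unadjusted p under 0.05. At 48 h the Pu27 and untreated arrays did not overlap for 13 of 61 members (21.3%), 2 above and 11 below untreated cells, against 11.1% of all genes, and the members' median difference was -0.11. At 24 h this held for 10 members (16.4%, 3 above and 7 below), against 11.2% of all genes, and at 72 h for 7 members (11.5%, 5 above and 2 below), against 20.9% of all genes.

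**Figure D2:**
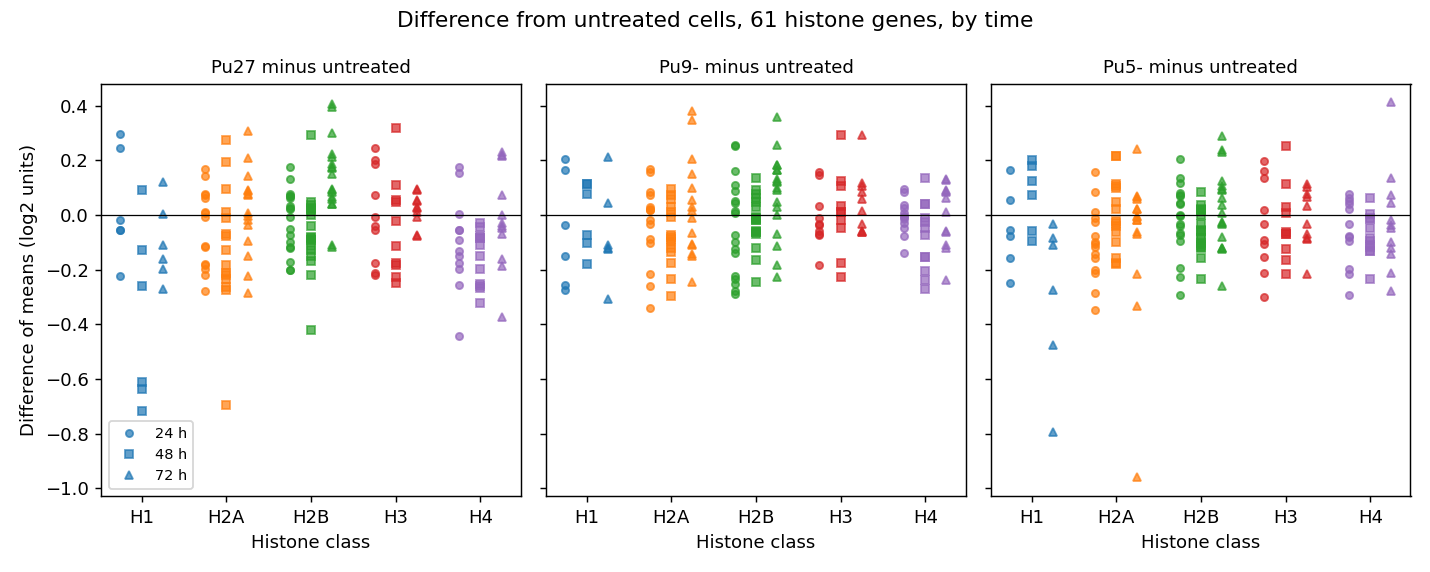
Difference of group means from untreated cells of the same time, in log2 units (vertical axis), for the 61 genes by class (horizontal axis), with Pu27, Pu9- and Pu5- in a panel each and 24, 48 and 72 h as circles, squares and triangles. Most points lie close to 0; the lowest are H2AC20 (-0.96) and H1-2 (-0.80) with Pu5- at 72 h, and H1-2 (-0.72), H2AC20 (-0.69), H1-3 (-0.64) and H1-4 (-0.61) with Pu27 at 48 h.

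H1-2, a linker histone, was the member called with an oligonucleotide at a single time on its brightest probe set. With Pu5- at 72 h it read 8.70, 8.20 and 8.39, against 9.44, 9.14 and 9.11 in untreated cells. Every Pu5- array lay below every untreated array, and H1-2 fell by 0.80 ± 0.20 (SE, n = 3 each), to 0.576 times the untreated signal, with a limma adjusted p of 0.0490. With the replicate number as a block, where 1.36% of all genes were called, the adjusted p was 0.00355. Without single arrays of the compared groups the call was lost in 5 of 6 cases, with adjusted p-values up to 0.371.

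With Pu27 the low point of H1-2 came at 48 h, with 8.82, 8.39 and 8.49, against 9.75, 8.86 and 9.25 in untreated cells. All Pu27 arrays were below all untreated arrays, and the difference was -0.72 ± 0.20 (SE, n = 3 each, limma adjusted p = 0.221). With the replicate block, in which 0.441% of all genes were called, its adjusted p was 0.0169. At 24 h the Pu27 arrays read 9.45, 8.71 and 8.94, against 9.59, 8.98 and 9.20 in untreated cells, and at 72 h 9.15, 9.26 and 8.94, against 9.44, 9.14 and 9.11, and at both times the groups overlapped. The mean over the times was -0.35 ± 0.12 (SE, n = 9 each, adjusted p = 0.0895), and 0.0116 with the block, where 5.72% of all genes were called. With Pu9- H1-2 read 9.63, 9.26 and 9.31 at 48 h and 9.05, 9.04 and 8.67 at 72 h, and the differences from untreated cells were 0.12 and -0.31, with adjusted p-values of 0.9999 and 0.567. At 72 h every Pu9- array of H1-2 also lay below every untreated array.

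The other H1 genes were read beside H1-2 after their values were seen. At 48 h H1-3 gave 6.10, 6.15 and 6.09 with Pu27, against 6.61, 6.50 and 7.16 in untreated cells, a difference of -0.64 (limma adjusted p = 0.897). H1-4 gave 6.33, 6.35 and 6.38, against 6.96, 6.83 and 7.10, a difference of -0.61 (adjusted p = 0.835). H1-5 gave 5.04, 4.94 and 5.15, against 5.39, 5.19 and 5.33, a difference of -0.26 (adjusted p = 0.9998). For these 3 genes, as for H1-2, no Pu27 array reached the untreated range at 48 h, yet none of them passed the test. The remaining linker genes, H1-1 and the testis gene H1-6, differed by -0.13 and 0.09 at that time. The median difference of the 6 H1 genes at 48 h was -0.44, against -0.11 over all members. The H2A gene H2AC20 lay as low, with 8.40, 8.44 and 8.06 with Pu27 at 48 h, against 9.13, 9.004 and 8.86 in untreated cells, without overlap, a difference of -0.69 (adjusted p = 0.9998), so these low values were not those of linker genes alone.

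Among H2B genes, H2BC5 had 3 probe sets, of which the brightest and a second are given here, and these differed. On the mean of its 3 probe sets, H2BC5 was 0.53 higher with Pu27 than in untreated cells at 72 h. Its brightest probe set read 5.68, 6.11 and 5.80 with Pu27 at 72 h, against 5.73, 5.78 and 5.53 in untreated cells, with overlapping arrays and a difference of 0.19 (adjusted p = 0.566). A second, dimmer and unmarked probe set read 5.76, 5.85 and 5.49 with Pu27 at 72 h, against 4.24, 4.88 and 4.58 in untreated cells. All 3 Pu27 arrays lay above all untreated arrays and above the Pu9- arrays (4.84, 4.74 and 4.53) and the Pu5- arrays (4.51, 5.20 and 4.72) of that time. In a fit of all 44988 probe sets, where 3.95% were called, H2BC5 rose by 1.14 ± 0.15 on this probe set (SE, n = 3 each, 95% confidence interval from 0.84 to 1.43), or 2.20-fold, with a limma adjusted p of 1.27e-05.

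That rise was kept without any 1 of the 6 arrays, with adjusted p-values between 1.44e-05 and 0.000446. The same probe set of H2BC5 differed by 0.14 with Pu9- (adjusted p = 0.805) and by 0.24 with Pu5- (adjusted p = 0.699) at 72 h. At 24 and 48 h its Pu27 means were 3.62 and 3.90, against 3.66 and 3.81 in untreated cells. The F test for a change of the Pu27 effect over time gave an adjusted p of 0.0146 for it, the only member probe set to pass. Over the mean of the times it was 0.34 higher with Pu27 than with Pu9- (adjusted p = 0.0459, 0.818% of probe sets called), and its difference between Pu27 and Pu5- was 0.30 (95% confidence interval from 0.13 to 0.47, adjusted p = 0.198). This probe set was singled out after its values were seen, and which transcripts of H2BC5 each probe set reads was not tested.

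**Figure D3:**
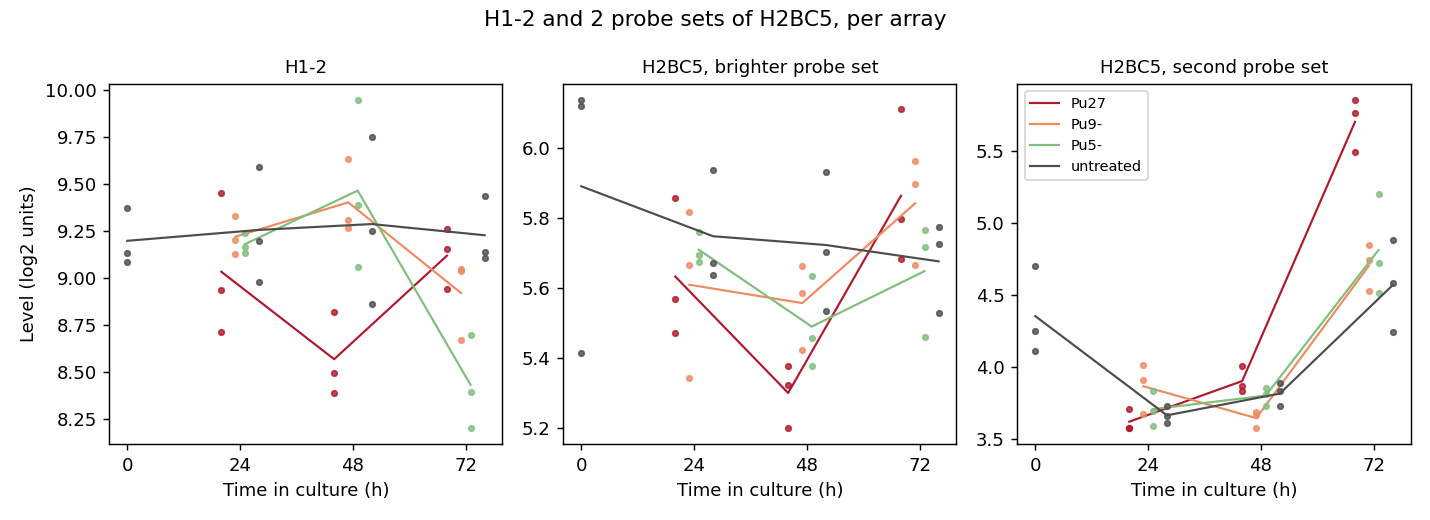
Level in log2 units (vertical axis, scaled to each panel) against time in culture (horizontal axis, arms set slightly apart at each time) for H1-2 and 2 probe sets of H2BC5; points are arrays and lines join group means. H1-2 is lowest with Pu27 at 48 h and with Pu5- at 72 h, and the second H2BC5 probe set is highest with Pu27 at 72 h, at 5.49 to 5.85.

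H2BC12, an H2B gene known for polyadenylated mRNA, read 9.01, 9.03 and 8.87 with Pu27 at 72 h, against 8.68, 8.55 and 8.47 in untreated cells. The groups did not overlap, and the difference was 0.41 ± 0.17 (SE, n = 3 each, adjusted p = 0.199). With the replicate block, which called 7.13% of all genes, H2BC12 had an adjusted p of 0.0339. With Pu9- and Pu5- at 72 h it read 8.58, 8.46 and 8.33 and 8.64, 8.64 and 8.53, which overlapped the untreated arrays.

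H4C12 was the member that fell with Pu27 over the mean of the times. At 24 h it read 7.50, 7.71 and 7.58 with Pu27, against 7.76, 7.66 and 7.90 in untreated cells. At 48 h the values were 7.55, 7.29 and 7.44 with Pu27 and 8.03, 7.48 and 7.55 in untreated cells, and at 72 h 6.77, 7.04 and 6.83 with Pu27 and 7.38, 7.11 and 7.28 in untreated cells. The groups overlapped at 24 and 48 h, and at 72 h every Pu27 array was lower. H4C12 fell by 0.27 ± 0.07 (SE, n = 9 each, 95% confidence interval from -0.41 to -0.13), to 0.829 times the untreated signal, with a limma adjusted p of 0.0196.

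Its difference was -0.27 with Pu5- as well (adjusted p = 0.0943) and -0.17 with Pu9- (adjusted p = 0.465), against the same untreated arrays. Between Pu27 and Pu5- the H4C12 difference was -0.001, with a 95% confidence interval from -0.14 to 0.14. A second, x-marked probe set of H4C12 averaged 6.43 with Pu27 and 6.68 in untreated cells, a fall of 0.25 (adjusted p = 0.0329 over all probe sets, of which 2.44% were called). A probe set shared with H4C11, left out of the members, averaged 7.07, 6.74 and 5.86 with Pu27 at 24, 48 and 72 h. Untreated cells averaged 7.28, 6.94 and 5.84 at these times, and the arrays were apart at 24 h only. The H4C12 call was lost without the arrays of any 1 replicate number, with adjusted p-values up to 0.241. It was also lost without untreated 48 h replicate 1 (-0.21, adjusted p = 0.0588), untreated 24 h replicate 3 (0.0529), untreated 72 h replicate 1 (0.0509), Pu27 24 h replicate 1 (0.0510) or Pu27 48 h replicate 2 (0.0554).

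The 3 pairs of oligonucleotides were compared at the same dose and times, and no member passed in any pair. The test called 1.38% of all genes between Pu27 and Pu9-, 0.248% between Pu27 and Pu5- and 0% between Pu9- and Pu5-, and limma gave 4, 5 and 4 members an unadjusted p under 0.05. H2BC12 had the largest difference between Pu27 and Pu9-, 0.31 ± 0.10 (SE, n = 9 each, 95% confidence interval from 0.10 to 0.51, adjusted p = 0.132). With the replicate block, which called 3% of all genes, its adjusted p was 0.00971. At 24 h, however, deviations of same-numbered Pu27 and Pu9- arrays correlated by only -0.013, -0.0589 and 0.107, so a shared replicate effect is uncertain for this pair. At 24 and 48 h H2BC12 read 7.70, 7.53 and 7.41 and 7.69, 7.48 and 7.36 with Pu27, against 7.82, 7.31 and 7.37 and 7.24, 7.20 and 7.03 with Pu9-. The Pu27 arrays were above the Pu9- arrays at 48 and 72 h and overlapped them at 24 h. H1-2 came next, at -0.27 between Pu27 and Pu9- (95% confidence interval from -0.51 to -0.04, adjusted p = 0.312).

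The largest differences between Pu27 and Pu5- were those of H2BC11 and H1-6. H2BC11 read 4.91, 5.02 and 5.14 with Pu27 at 72 h, against 4.41, 4.60 and 4.38 with Pu5-, without overlap. At 24 h it read 4.55, 4.63 and 4.84 with Pu27, against 4.56, 4.65 and 4.64 with Pu5-, and at 48 h 4.47, 4.45 and 4.48, against 4.60, 4.18 and 4.33, with overlap at both times. Its mean difference was 0.24 (95% confidence interval from 0.08 to 0.40, adjusted p = 0.252).

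H1-6 read 4.85, 4.87 and 4.62 with Pu27 at 24 h, against 4.27, 4.39 and 4.47 with Pu5-, at 48 h 4.85, 4.58 and 4.45, against 4.45, 4.44 and 4.55, and at 72 h 4.63, 4.77 and 4.54, against 4.35, 4.63 and 4.49. The groups were apart at 24 h and overlapped later, and the mean difference was 0.24 (95% confidence interval from 0.10 to 0.37, adjusted p = 0.156). Pu9- arrays of H1-6 read 4.56, 4.94 and 4.59 at 24 h, 4.46, 4.36 and 4.58 at 48 h and 4.59, 4.59 and 5.04 at 72 h. Between Pu9- and Pu5- H1-6 differed by 0.19 (95% confidence interval from 0.05 to 0.32) and H2BC21 by 0.17 (from -0.07 to 0.41), both with an adjusted p of 0.9998. H2BC21 read 4.67, 4.81 and 4.86 at 24 h, 5.23, 5.40 and 5.52 at 48 h and 6.19, 7.37 and 6.76 at 72 h with Pu9-, against 4.38, 4.88 and 4.90, 5.34, 5.21 and 5.16, and 6.16, 6.84 and 6.42 at those times with Pu5-. These groups overlapped at each time.

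Read from its brightest probe set, no member passed the F test for a change of an oligonucleotide's effect between the times; the second probe set of H2BC5 did for Pu27, as given above. The F tests called 0.0441% of all genes for Pu27, 0.00552% for Pu9- and 0.0441% for Pu5-, and gave 7, 1 and 3 members an unadjusted p under 0.05. The H4 gene H4C16 had the smallest adjusted p for Pu27 (0.272) and for Pu5- (0.685). Its Pu27 arrays read 4.22, 4.38 and 4.20 at 24 h, 4.53, 4.48 and 4.61 at 48 h and 4.29, 4.36 and 4.44 at 72 h, and its Pu5- arrays 4.55, 4.57 and 4.42, 4.58, 4.35 and 4.44, and 4.70, 4.56 and 4.42. Untreated arrays read 4.57, 4.96 and 4.59, 4.53, 4.62 and 4.56, and 4.37, 4.18 and 3.89, so H4C16 was lower with Pu27 than in every untreated array at 24 h, and higher with Pu5- than in every untreated array at 72 h.

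After H4C16, the smallest adjusted p-values were 0.402 for H4C3 with Pu27 and 0.767 for H1-2 with Pu5-. With Pu9- the dim genes H2BC8 (adjusted p = 0.888) and H3C2 (0.937) came first. H2BC8 read 3.18, 3.50 and 3.33 at 24 h, 3.43, 3.14 and 3.41 at 48 h and 3.44, 3.52 and 3.28 at 72 h with Pu9-, against 3.46, 3.68 and 3.70, 3.74, 3.47 and 3.51, and 3.49, 3.21 and 3.24 in untreated cells. H3C2 read 3.15, 3.41 and 3.34, 3.32, 3.41 and 3.20, and 3.38, 3.47 and 3.41 with Pu9-, against 3.32, 3.41 and 3.28, 3.30, 3.47 and 3.30, and 3.14, 3.17 and 3.07 in untreated cells. H2BC8 arrays of both groups overlapped at 24 and 72 h but not at 48 h, and H3C2 arrays overlapped at 24 and 48 h but not at 72 h.

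More clustered histone genes passed the test between times in culture than with an oligonucleotide, and the same was true of genes at large. In untreated cells 17 of 61 members passed the F test over the 4 times (27.9%), against 38.7% of all genes. At 24 h against 0 h, 7 members were higher (H1-5, H2AC20, H2AC13, H3C7, H4C3, H4C9 and H4C16) and 6 lower (H2AC25, H2AC16, H2BC12, H2BC21, H2BC4 and H3C2), where 28.6% of all genes were called, 14% as higher and 14.6% as lower. At 48 h against 0 h, H2AC16, H2BC12 and H2BC21 were lower, where 5.18% of all genes were called and 2.14% as lower. At 72 h against 0 h H2BC6, H3C2 and H4C3 were lower, where 15.6% were called and 7.99% as lower. The shares of members called were 21.3%, 4.92% and 4.92% in these 3 comparisons. H2BC6 read 4.46, 4.44 and 4.55 at 72 h, against 4.82, 4.91 and 5.09 at 0 h, and fell by 0.45 (adjusted p = 0.00209). H3C2 read 3.14, 3.17 and 3.07 at 72 h, against 3.82, 3.74 and 3.33 at 0 h, and fell by 0.51 (adjusted p = 0.00144). For both genes all 72 h arrays lay below all 0 h arrays. The array's background probe sets averaged 2.48 to 10.3, with a median of 3.16. The 72 h values of H3C2 and the mean of H2BC4 over all arrays (3.31) lay near that median. Without untreated 0 h replicate 1, the calls of H3C2 (-0.20, adjusted p = 0.234) and H4C16 (0.34, adjusted p = 0.0695) at 24 h were lost. At 48 h the call of H2AC16 was lost in 4 of 6 removals of 1 array, with adjusted p-values up to 0.186.

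H2BC21 and H2BC12, 2 H2B genes that can make polyadenylated mRNA, fell and then returned in untreated cells. H2BC21 read 6.48, 5.97 and 5.74 at 0 h, 5.04, 5.06 and 4.94 at 24 h, 5.25, 5.45 and 5.19 at 48 h and 5.95, 6.58 and 6.71 at 72 h. Its arrays at 24 and 48 h lay below all arrays at 0 and 72 h. At 24 h against 0 h it fell by 1.05 ± 0.21 (SE, n = 3 each, adjusted p = 0.000118), to 0.483 times the 0 h signal, and this call was kept without any 1 array. At 48 h against 0 h H2BC21 fell by 0.77 (adjusted p = 0.0231), a call lost without untreated 0 h replicate 1 (-0.56, adjusted p = 0.152), 48 h replicate 1 (0.0738) or 48 h replicate 3 (0.0664).

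H2BC12 read 8.69, 8.01 and 8.12 at 0 h, 8.12, 7.64 and 7.41 at 24 h, 7.31, 7.14 and 7.21 at 48 h and 8.68, 8.55 and 8.47 at 72 h. The 48 h arrays were the lowest, without overlap with any other time, and the 72 h arrays were back in the 0 h range. H2BC12 fell by 1.05 ± 0.17 at 48 h against 0 h (SE, n = 3 each, adjusted p = 0.000293), a call kept without any 1 array. At 24 h against 0 h it fell by 0.55 (adjusted p = 0.0143), but without untreated 0 h replicate 1 the difference was -0.34 (adjusted p = 0.176), and the call was also lost without 24 h replicate 2 (0.0553) or 3 (0.133). These courses rest on 1 probe set of each gene. The other probe set of H2BC12 averaged 3.88, 3.96, 4.02 and 3.97 in untreated cells at 0, 24, 48 and 72 h, and the other H2BC21 probe sets, which hold equal values, 3.48, 3.41, 3.32 and 3.40, so these dim probe sets did not show the fall and return.

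H2AC20 and H1-5 were called higher at 24 h than at 0 h, and both calls rest on single arrays. H2AC20 read 10.14, 8.75 and 9.07 at 24 h, against 5.60, 9.05 and 8.70 at 0 h, a difference of 1.53 (adjusted p = 0.0225) that was 0.44 (adjusted p = 0.484) without untreated 0 h replicate 1 and 1.13 (adjusted p = 0.165) without 24 h replicate 1. H1-5 read 6.04, 5.25 and 5.77 at 24 h, against 4.59, 5.24 and 5.40 at 0 h, a difference of 0.61 (adjusted p = 0.0159) that was 0.37 (adjusted p = 0.196) without 0 h replicate 1, 0.43 (adjusted p = 0.150) without 24 h replicate 1 and 0.57 (adjusted p = 0.0560) without 24 h replicate 3. In contrast, H2AC13 rose by 0.60 on an s-marked probe set (4.55, 4.75 and 4.50 at 24 h, against 3.97, 3.99 and 4.03 at 0 h; adjusted p = 5.44e-06), and H4C9 rose by 0.52 (6.01, 5.89 and 6.11 at 24 h, against 5.43, 5.40 and 5.62 at 0 h; adjusted p = 0.00126). For both, all 24 h arrays exceeded all 0 h arrays and the call was kept without any 1 array. On its probe set without an s or x mark, a choice added after seeing the data, H2AC13 differed by 0.25 (adjusted p = 0.0588).

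The step from 48 to 72 h was measured on separate arrays in each of the 4 arms. The arms may not be independent repeats, since same-numbered arrays of different arms shared deviations. Between Pu9- and Pu5- these correlated by 0.464, 0.143 and 0.54 at 48 h and by 0.576, 0.34 and 0.436 at 72 h. H2BC12, H2BC21 and H2AC6 rose and H4C12 fell in all 4 arms. In total 9 members rose and 1 fell with Pu27, 7 rose and 3 fell with Pu9-, 5 rose and 6 fell with Pu5-, and 5 rose and 5 fell in untreated cells. These comparisons called 18.5% of all genes with Pu27 (8.07% higher, 10.5% lower), 19.3% with Pu9- (8.53% higher, 10.8% lower), 18% with Pu5- (8.15% higher, 9.82% lower) and 17.4% in untreated cells (7.91% higher, 9.44% lower).

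H2BC12 rose by 1.46 with Pu27, 1.30 with Pu9-, 1.37 with Pu5- and 1.35 in untreated cells, or 2.45- to 2.76-fold, with adjusted p-values of 1.93e-07, 1.49e-06, 7.10e-07 and 8.17e-07. At 48 h its arrays with Pu5- read 7.38, 7.29 and 7.04. In each arm all 72 h arrays of H2BC12 lay above all 48 h arrays. H2BC21 rose by 1.04, 1.39, 1.24 and 1.12 in the same order, with adjusted p-values of 0.000306, 6.85e-06, 3.55e-05 and 0.000153. Its Pu27 arrays read 6.11, 6.28 and 6.51 at 72 h, against 5.12, 5.40 and 5.24 at 48 h, and the groups were apart in every arm. Both genes kept these calls in all arms without any 1 array.

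The H2A gene H2AC6, read from an s-marked probe set, rose by 0.66, 0.83, 0.57 and 0.54 in that order (adjusted p = 0.00255, 0.000202, 0.00954 and 0.0137). In untreated cells it read 5.31, 5.60 and 5.20 at 72 h, against 4.93, 4.92 and 4.62 at 48 h, without overlap. The untreated call of H2AC6 was lost without 48 h replicate 3 (adjusted p = 0.0923) or 72 h replicate 2 (0.114), and the Pu5- call without 48 h replicate 1 (0.0596) or 72 h replicate 2 (0.0617) or 3 (0.0707). The second probe set of H2BC5 followed the same course, with rises of 1.80, 1.06, 1.01 and 0.75 (adjusted p = 3.71e-10, 3.53e-06, 7.59e-06 and 0.00039 over all probe sets, of which 14.5% were called in untreated cells). The brightest H2BC5 probe set did not, with differences of 0.56, 0.28, 0.16 and -0.05 in that order (limma adjusted p = 0.0064, 0.221, 0.615 and 0.902).

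**Figure D4:**
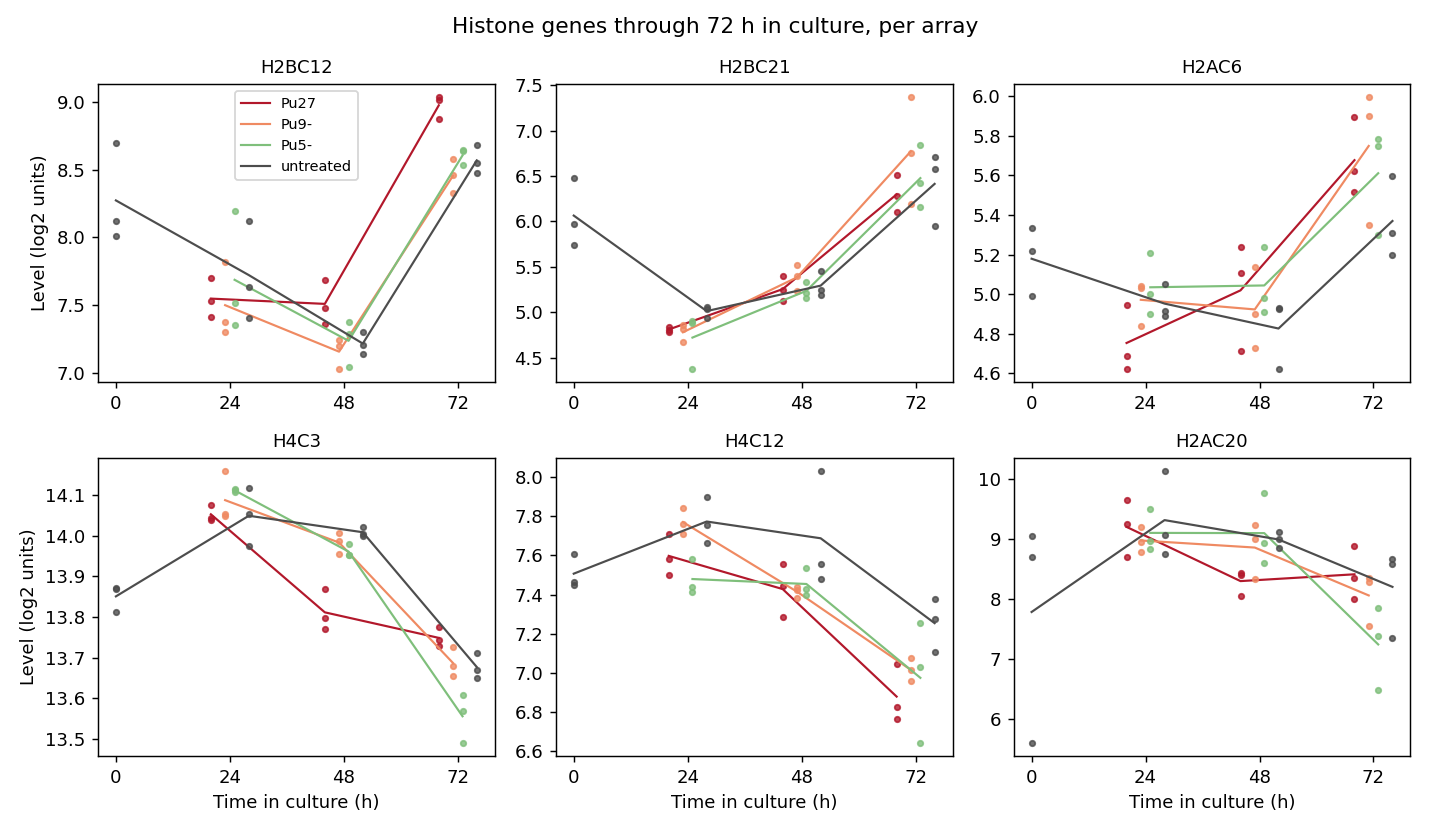
Level in log2 units (vertical axis, scaled to each panel) against time in culture (horizontal axis, arms set slightly apart at each time) for 6 genes; points are arrays and lines join group means for Pu27, Pu9-, Pu5- and untreated cells. H2BC12, H2BC21 and H2AC6 rise between 48 and 72 h in all arms, H4C12 falls in all arms, and 1 array of H2AC20 at 0 h stands at 5.60.

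Among the 12 H4 genes at this step, 1 fell with Pu27 (7 differences below 0), 2 with Pu9- (10 below 0), 2 with Pu5- (9 below 0) and 4 in untreated cells (12 below 0), and none rose. H4C12 fell by 0.55 with Pu27, 0.40 with Pu9-, 0.48 with Pu5- and 0.43 in untreated cells (adjusted p = 0.00107, 0.0162, 0.00418 and 0.0100). Its Pu9- arrays read 7.08, 6.96 and 7.01 at 72 h, against 7.44, 7.38 and 7.43 at 48 h, and its Pu5- arrays 6.64, 7.03 and 7.25, against 7.43, 7.53 and 7.40. The arrays of 72 h lay below those of 48 h in every arm. The H4C12 call was kept with Pu27 without any 1 array. It was lost in untreated cells without 48 h replicate 1 (-0.26, adjusted p = 0.175) or 72 h replicate 2 (0.0805), with Pu9- without 48 h replicate 1 (0.0575) or 72 h replicate 2 (0.0719), and with Pu5- without 72 h replicate 1 (-0.31, adjusted p = 0.0733).

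H4C3, the brightest histone probe set, fell by 0.30 with Pu9-, 0.41 with Pu5- and 0.33 in untreated cells between 48 and 72 h (adjusted p = 0.000367, 6.85e-06 and 0.000119). Untreated H4C3 arrays read 13.81, 13.87 and 13.87 at 0 h, 14.05, 14.12 and 13.98 at 24 h, 14.004, 14.02 and 14 at 48 h and 13.67, 13.71 and 13.65 at 72 h, so only the 24 and 48 h groups overlapped. With Pu27 it read 14.04, 14.04 and 14.08 at 24 h, 13.87, 13.77 and 13.80 at 48 h and 13.78, 13.74 and 13.73 at 72 h. There it fell by 0.24 at 48 h against 24 h (adjusted p = 0.00261), and the later difference was -0.06 (adjusted p = 0.547). At 48 h all Pu27 arrays of H4C3 lay below all untreated arrays, by 0.20 in the mean (adjusted p = 0.307). At 72 h against 0 h untreated H4C3 fell by 0.17 (adjusted p = 0.0435), a call lost in 5 of 6 removals of 1 array, with adjusted p-values from 0.0753 to 0.120.

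H2AC20 and H2BC21 are divergent neighbours on chromosome 1, and 265 of the 300 bases of their promoter windows are shared. H2BC21 rose between 48 and 72 h in all arms. Over the same step H2AC20 differed by -1.86 with Pu5- (7.85, 6.49 and 7.39 at 72 h, against 9.77, 8.93 and 8.61 at 48 h, adjusted p = 0.00921), all 72 h arrays being lower, and it did not pass in the other arms. That Pu5- call was lost without 48 h replicate 1 (adjusted p = 0.0777) or 72 h replicate 2 (0.0867). In untreated cells H2AC20 read 8.67, 8.59 and 7.35 at 72 h, against 9.13, 9.004 and 8.86 at 48 h. With Pu5- it differed from untreated cells at 72 h by -0.96 (adjusted p = 0.592), with overlapping arrays. H1-2 fell with Pu5- over this step too, by 1.03 (adjusted p = 0.000271), to 8.70, 8.20 and 8.39 at 72 h, against 9.95, 9.06 and 9.39 at 48 h, without overlap.

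Other genes of DNA replication and histone supply are given beside the clustered genes, and no difference between lists was tested. Of 21 measured S-phase genes, 12 rose and 0 fell with Pu27 over the mean of the times, with a median of 0.25, against -0.04 for the 61 histone genes and 0.01 for all genes. That comparison called 2.79% of all genes as higher and 1.19% as lower. Cyclin gene CCNE2 rose by 1.33 (adjusted p = 7.72e-08), the ribonucleotide reductase gene RRM2 by 0.67 (8.56e-06), the replication licensing factor CDC6 by 0.58 (3.12e-07) and CCNE1 by 0.52 (8.33e-05). At 48 h 1 of the 21 rose with Pu27, and at 72 h 14 did. At these times 0.105% and 2.94% of all genes were called as higher. With Pu9- none of them passed and with Pu5- 2 rose. Over the mean of the times, 0.0882% of all genes were called with Pu9-, and 0.176% were called as higher with Pu5-. SLBP, which binds the histone stem-loop and is on this list and on that for mRNA processing, differed by 0.15 with Pu27 (adjusted p = 0.245).

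In untreated cells 16 of the 21 S-phase genes rose at 24 h against 0 h, with a median of 0.52, and all 21 fell at 72 h against 48 h, with a median of -0.81, where the median of the 61 histone genes was -0.07. Of all genes, 14% were called as higher and 14.6% as lower at 24 h against 0 h. At 72 h against 48 h these shares were 7.91% and 9.44%. Of 23 measured genes for transcription and 3′ end processing of histone mRNA, none passed with Pu27 over the mean of the times, 13 rose and 1 fell at 24 h against 0 h, and 1 rose and 7 fell at 72 h against 48 h. Of 23 histone chaperones, CHAF1A and CHAF1B, subunits of the factor that loads H3 and H4 behind the replication fork, rose with Pu27 by 0.24 (adjusted p = 0.0103) and 0.21 (adjusted p = 0.0396), 8 rose at 24 h against 0 h and 10 fell at 72 h against 48 h. Among 11 measured replacement histones, made outside the clusters through the cell cycle, H2AJ fell by 0.31 with Pu27 (adjusted p = 0.0309) and 0 rose. At 72 h 4 of them rose and 1 fell with Pu27, where 2.94% of all genes were called as higher and 2.15% as lower.

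Of the 6 members described with polyadenylated mRNA, read from their brightest probe sets, 1 was called with an oligonucleotide. This was H1-2 with Pu5- at 72 h, where 0.403% of all genes were called as lower, a call lost without some single arrays. The second probe set of H2BC5, also 1 of the 6, rose by 1.14 with Pu27 at 72 h (limma adjusted p = 1.27e-05). Of the 6, 3 fell at 24 h against 0 h (H2BC12, H2BC21 and H2BC4) and 3 rose at 72 h against 48 h (H2BC12, H2BC21 and H2AC6) in untreated cells. These comparisons called 14.6% of all genes as lower and 7.91% as higher, respectively. The median of the 6 at 72 h against 48 h was 0.35, against -0.07 for all 61 members and -0.02 for all genes. The list was chosen with these data known, and how far a change in tails rather than in amount of mRNA enters these values was not tested.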

How the data were processed

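Expression was measured on Affymetrix 3' IVT arrays in 39 samples of U937 cells. The deposited values are log2 signals that the authors made with RMA (background correction, quantile normalisation and summary of probes per set); RMA and limma are named in the submitters' processing notes. Their versions and any genome build: not given in the sources used here. RMA makes array distributions alike and compresses dim signals, so total RNA per cell is not measured. Of the per-sample columns, 0 stayed unmatched to a sample.

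Per gene, the single-symbol probe set with the highest mean was kept, with no filter. Differences were fitted with limma 3.58.1 in R 4.3.3, with 1 mean per group over all 39 arrays (26 residual and 7.13 prior degrees of freedom), and p-values were adjusted with the Benjamini-Hochberg method over all 18132 genes within a comparison, at 0.05. The fit was tested on simulated data. Groups came from the sample titles. Values after ± are standard errors of limma's estimates. Promoters came from RefSeq, GRCh38.p14.

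Members, lists, tests and the naming rule were chosen with earlier results of these data known. The rule took the brightest member of each class, called members of the oligonucleotide comparisons and of untreated 72 h against 0 h, the 2 largest differences of each oligonucleotide pair and the 2 smallest adjusted p-values of each F test; other genes were named after their values were seen. Replicate numbers were checked for pairing by the correlation of deviations from group means. For Pu27 against untreated cells every pair exceeded 0.1 at each time (0.108 to 0.53). For Pu9- and Pu5- every pair did at 48 and 72 h but not at 24 h. The replicate block is therefore given where it changes a call. It fits an effect of each replicate number that all groups and times share. Untreated times were not paired, with a correlation as low as -0.322 between 48 and 0 h. Between Pu27 and Pu9- not every pair exceeded 0.1 at 24 h. A p-value from the block depends on that shared effect.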

Additional observations from a re-analysis of the deposited data

How the results depend on the processing

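Of 486 recomputed counts of histone genes past the test, 435 stayed at 0 where the main count was 0 or stayed within 1.5 times a main count above 0. Most main counts were 0, so this number says little about the counts above 0, whose ranges are given below. Of 1454 recomputed results of single genes 1077 kept their call, 377 lost it and 0 reversed. The settings were other probe set choices, a filter on dim genes, a common array median, an intensity trend with robust estimation, ACTB 3′ minus 5′ as a covariate, compared groups only, the replicate block and the removal of arrays; the choice of probe sets without an s or x mark was added after seeing the data. Why counts moved was not tested, except that leaving out arrays leaves fewer samples and the dim filter keeps 25 of the 61 members.

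Pu27 over the mean of the times (1 member) gave 0 to 2 without 1 array, 0 without a replicate number, 2 with every probe set (H4C12 and H2BC5), 2 with probe set means (H4C12 and H2AC13) and 3 with the replicate block (H4C12, H1-2 and H4C2, -0.21, adjusted p = 0.0478). Pu27 at 48 h (0) gave 1 with the block (H1-2) and 1 with trend and robust estimation (H4C3, -0.20, adjusted p = 0.0155). Pu27 at 72 h (0) gave 1 with every probe set and 1 with probe set means (H2BC5), 1 with the block (H2BC12) and 0 to 1 without a replicate number. Pu9- at 72 h (0) gave 0 to 3 without 1 array, the 3 being H2AC6, H2AC11 and H2BC21 without Pu9- 72 h replicate 1, 0 to 1 without a replicate number and 1 with unmarked probe sets (H2AC15). Pu5- gave 0 to 1 without 1 array over the mean of the times (0). At 72 h (1) it gave 0 to 1 without 1 array or a replicate number and 0 with every probe set, a common median, trend and robust estimation, compared groups only or unmarked probe sets. Pu27 against Pu9- (0) gave 1 with every probe set (H2BC5), 1 with the block (H2BC12) and 0 to 1 without a replicate number, and the F test for Pu27 (0) gave 1 with every probe set (H2BC5).

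In untreated cells, 24 h against 0 h (13) gave 7 to 13 without 1 array, 6 to 10 without a replicate number, 8 with the dim filter and 7 with compared groups only. At 48 h against 0 h (3) the range was 2 to 3 without 1 array and 1 to 3 without a replicate number, with 1 for compared groups only. At 72 h against 0 h (3) it was 2 to 5 without 1 array and 0 to 8 without a replicate number, with 5 for probe set means. The replicate block changed no other call against untreated cells or between oligonucleotides over the mean of the times. Untreated times shared only a number, and with the block they gave 13, 3 and 3 members at 24, 48 and 72 h against 0 h. The number of arrays, 3 a group, limits the precision.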

Other observations

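Probe sets paired with several histone symbols belong to no single gene and are given as values only. The brightest of them, x-marked and shared by the H2A genes H2AC18 and H2AC19, averaged 8.85 at 0 h, 7.50 at 24 h, 7.79 at 48 h and 8.80 at 72 h in untreated cells, and 8.96 with Pu27 at 72 h. The probe set shared by the H4 genes H4C12 and H4C11 averaged 6.67, 7.28, 6.94 and 5.84 in untreated cells at 0, 24, 48 and 72 h. With Pu27 it averaged 7.07, 6.74 and 5.86 at 24, 48 and 72 h, so its mean was lower than in untreated cells at 24 and 48 h but not at 72 h.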
